A study of Mus musculus with 4 samples.

Results

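The genes described here are 37 genes for protein folding, disulfide formation and the unfolded-protein response in the endoplasmic reticulum (ER), out of 56980 genes in the count table. They were chosen by symbol, as genes of known function in this route, at a time when earlier results of these data were known. A search by exact symbol found 36 of them. Ddit3 is listed as a pair of overlapping gene models, of which ENSMUSG00000025408 held all the counts and was used, while ENSMUSG00000116429 had 0 counts in every mouse. The RNA came from mesenchymal stromal cells (MSCs) of the bone marrow, sorted by flow cytometry for CD51 and PDGFRa and against CD45, Ter119, CD31 and Sca1 from 4 wild-type male C57BL/6J mice (30 years inbred in-house), which were 14 weeks old. Each mouse gave 1 library from a small number of sorted cells, and all 4 libraries form a single group without a treatment, a mutant or another age beside it. The study used these libraries to learn which ligands and receptors MSCs express. The values below are therefore levels and their spread between mice. XBP1 splicing, sensor phosphorylation and protein amounts cannot be read from counts per gene.

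Proteins that a cell secretes or places in its membrane are folded in the ER. BiP, encoded by Hspa5, and its helpers hold unfolded chains, calnexin and calreticulin retain chains that carry a trimmed glycan, and protein disulfide isomerases with the ERO1 oxidases form and rearrange disulfide bonds. When unfolded chains accumulate, the sensors IRE1, PERK and ATF6 are activated. IRE1 splices the Xbp1 transcript, PERK phosphorylates eIF2alpha so that Atf4 is translated, and ATF6 is cut to release a transcription factor. Chains that fail to fold are moved to the cytosol and degraded, which is called ER-associated degradation (ERAD). Stromal and osteogenic cells of the marrow are known for secreting large amounts of collagen and other matrix proteins, all of which pass through this route.

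The 4 libraries held between 22738604 and 43545349 counts, and from 16109 to 18907 genes were detected in each of them. Levels are given as TPM (transcripts per 1000000), in which counts are divided by the merged exon length of the gene and each library is scaled to the same total, so that levels of different genes can be set side by side. A floor of 3 counts equals between 0.0689 and 0.132 counts per 1000000. All 7 genes on a list of MSC and sort markers had a median above 1 TPM. Among the sort-negative antigens, Ptprc (CD45) had at most 50 counts and Pecam1 (CD31) at most 14, while Ly6a (Sca1) had 1, 120, 0 and 144 counts in mice 1 to 4. The 5 osteoblast markers summed to between 120168 and 265433 TPM. Plasma cells are rich in ER chaperones, so their markers were looked at too: Mzb1 and Prdm1 had 0 counts in every mouse, Jchain had at most 1 count, and 2 of 10 markers had a median above 1 TPM, Sdc1 and Ighm. The 6 erythroid markers summed to 4980, 35.04, 1708 and 358 TPM in mice 1 to 4.

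The promoter window of each gene ran from 250 bases before to 50 bases after its annotated start. It was searched on both strands for sequence elements of the unfolded-protein response. The windows are from RefSeq on GRCm38.p6, and 31 of the 37 genes matched one. Hyou1, Sil1, Manf, Ppic, Atf6 and Derl1 did not. The ER stress response element (ERSE) was spelled as CCAAT, 9 bases, then CCACG. ERSE-II was spelled as ATTGG, 1 base, then CCACG, the core of the unfolded-protein response element (UPRE) as TGACGTG and an ATF4 element as TTGCATCA or its reverse TGATGCAA. No search pattern contains another, and overlapping matches were each kept. ERSE was present in 10 of the 31 genes, against 37 of all 27025 genes with a window, or 0.137%, and the 37 include the 10. ERSE-II was present in 2 genes, Dnajb11 and Herpud1, against 12 of all genes (0.0444%). The UPRE core is a much more common word, found in 2.22% of all genes and in 1 of these genes, Hspa5. The ATF4 element was found in 1.03% of all genes and in 1 of these genes, Herpud1. The genes were chosen as known members of the response that these elements belong to. The higher share of ERSE is therefore not independent of that choice.

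Hspa5 is shown first, because it holds both a UPRE core and an ERSE. Its RefSeq start, at 34772090 on chromosome 2, lies 120 bases downstream of the gene start at 34771970 in the annotation used for lengths. Printed 5′ to 3′ on the plus strand are the 130 bases before both starts, at chr2:34771840-34771969 with the UPRE core in capitals, and the ERSE with 5 bases on either side, at chr2:34772020-34772048 with its fixed ends in capitals. The ERSE lies before the RefSeq start and after the other one.
Hspa5, upstream: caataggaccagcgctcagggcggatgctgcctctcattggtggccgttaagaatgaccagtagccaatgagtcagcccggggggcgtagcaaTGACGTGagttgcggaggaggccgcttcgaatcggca
Hspa5, ERSE: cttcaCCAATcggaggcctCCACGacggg

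The matches of other genes are shown with the bases on either side, 5′ to 3′ on the strand of the gene, so that the bases between and around the fixed letters can be compared. They are examples from chaperone, lectin and disulfide isomerase genes, both genes with ERSE-II, and Derl3, which carries the element and had no counts. The capitals mark the fixed letters of ERSE, in either orientation, and the whole element for ERSE-II and the ATF4 element.
Hsp90b1, distal ERSE at chr10:86705638-86705656: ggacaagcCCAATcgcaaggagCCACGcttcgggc
Hsp90b1, proximal ERSE at chr10:86705533-86705551: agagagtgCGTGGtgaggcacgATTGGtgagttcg
Creld2, ERSE at chr15:88819520-88819538: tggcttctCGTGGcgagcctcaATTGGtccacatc
Calr, ERSE at chr8:84847075-84847093: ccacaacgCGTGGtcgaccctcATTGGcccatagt
Canx, ERSE at chr11:50325800-50325818: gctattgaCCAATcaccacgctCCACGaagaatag
Pdia6, ERSE at chr12:17266491-17266509: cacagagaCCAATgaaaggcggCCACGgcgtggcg
Derl3, ERSE at chr10:75893242-75893260: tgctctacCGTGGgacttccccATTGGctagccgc
Dnajb11, ERSE-II at chr16:22857852-22857862: cggcggcgATTGGCCCACGcctggctg
Herpud1, ERSE-II at chr8:94386377-94386387: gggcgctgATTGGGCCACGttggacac
Herpud1, ATF4 element at chr8:94386317-94386324: acggcgggTTGCATCAgcccgcac

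In the ERSE lines the fixed ends and their spacing, in either orientation, are set by the search, and the 9 bases between them differ from gene to gene. Dnajc3, Ero1b and Syvn1 complete the 10 genes with ERSE, and Hsp90b1 had 2 matches. Of the 15 matches, 14 lay before the RefSeq start, and that of Dnajb11 begins 7 bases after it. By the starts of the annotation used for lengths, which are over 20 bases away for 4 of the 12 genes, 13 lay before the start, the ERSE of Hspa5 being the other exception. Of the 12 genes with ERSE or ERSE-II, 10 were expressed above a median of 1 TPM, and the median over the 12 of their median levels was 159 TPM. For the 19 genes with a window and neither element, 18 were expressed and the corresponding median was 30.6 TPM. Both sets are wide, from 0 to 889 TPM with an element and from 0 to 800 TPM without, so that they overlap over nearly their whole range. A match to these letters is a description of the sequence and does not show binding in these cells.

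**Figure D1:**
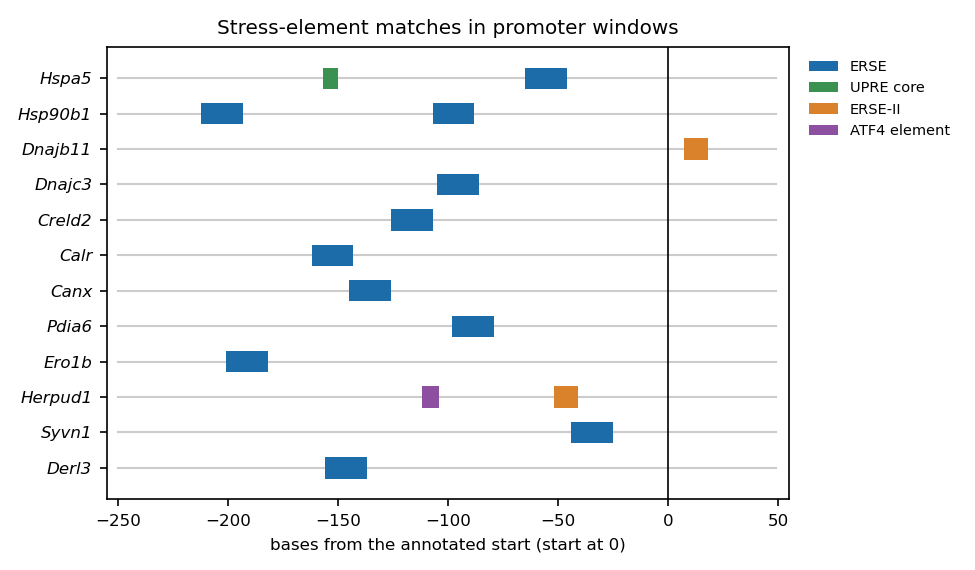
Positions of sequence matches in the promoter windows of the 12 genes with ERSE or ERSE-II. The x axis gives bases from the RefSeq start, and colours name the element. The grey line is the searched window, most of which lies before the start. By these starts 14 of 15 matches lie before the start, and that of Dnajb11 begins 7 bases after it; by the other annotation's start, the ERSE of Hspa5 lies after it too.

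As a group, these genes were expressed in the MSCs. A median above 1 TPM, the cutoff for expression used by the study, was reached by 34 of the 37 genes (91.9%), against 22.9% of all 52125 genes with a known length and 44.2% of the protein-coding ones. More than 1 TPM in every mouse was reached by 32 genes (86.5%), against 30.1% of protein-coding genes. A level of 100 TPM, a threshold chosen after the values were seen, was passed by the medians of 18 genes (48.6%), against 4.11% of protein-coding genes. The genes below the cutoff were Ero1b, Trib3 and Derl3, and those that reached it without passing in every mouse were Ero1a and Atf6. In bulk RNA a lower level may come from fewer cells that express a gene or from less RNA per cell, which cannot be told apart here.

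All 37 genes together summed to 7072, 8037, 8254 and 5564 TPM in mice 1 to 4, with a mean of 7232 ± 1225 TPM (SD, n = 4). This was between 0.556% and 0.825% of all transcripts by this measure. The sum was lowest in mouse 4, also with TMM factors and with a common upper quartile between libraries. It was highest in mouse 3 as TPM, but in mouse 2 with TMM factors (8172 against 7589 in mouse 3) and with a common upper quartile (8230 against 7271). A few genes carried most of it, since Ppic, Hspa5, Pdia3, Hsp90b1 and Xbp1 made up between 56.4% and 61.6% of the sum in each mouse. By median level, the genes were ordered Ppic, Hspa5, Pdia3, Hsp90b1, Xbp1, Pdia4, Pdia6, Herpud1, Creld2, Atf4, Manf, Calr, Sdf2l1, Derl1, Dnajb11, Dnajc3, Dnajb9, Canx, Ppp1r15a, Pdia5, Ddit3, Derl2, Dnajc10, Sil1, Atf6b, Sel1l, Edem1, Syvn1, Eif2ak3, Ero1a, Atf6, Uggt1, Hyou1, Ern1 and Ero1b, followed by Trib3 and Derl3 at a median of 0. The order is coarse. Of the 36 neighbouring pairs in it, the ranges over the mice were separate for only 2, Ppic above Hspa5 and Sil1 above Atf6b, and the upper gene was higher in every mouse for 5.

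**Figure D2:**
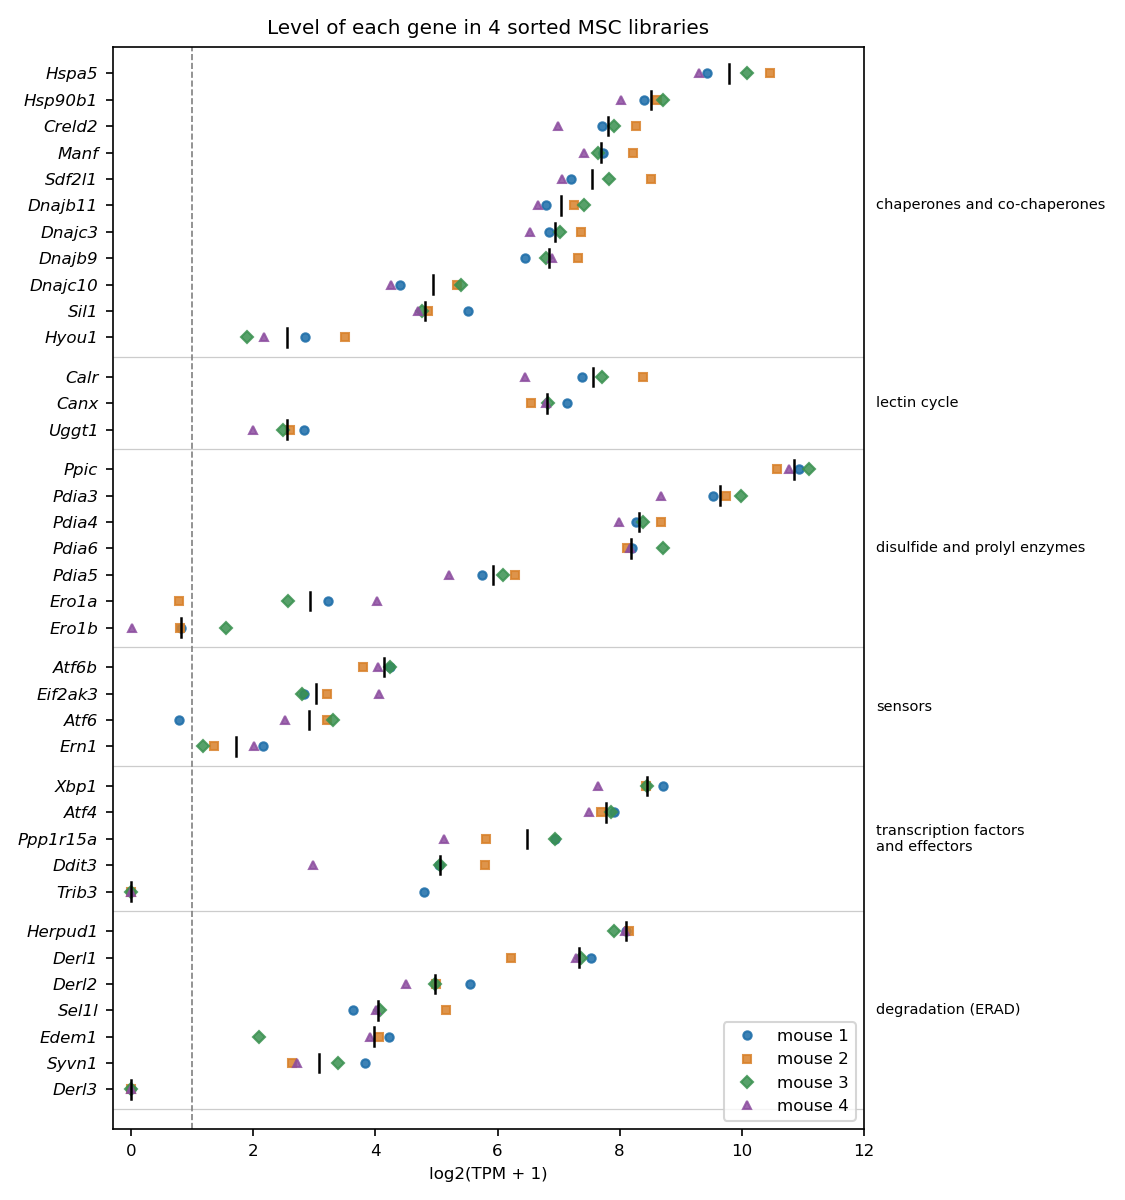
Level of each of the 37 genes in each of the 4 mice, grouped by role. The x axis is log2(TPM + 1), symbols stand for mice, the black tick is the median of 4 and the dashed line marks 1 TPM. Ppic and Hspa5 lie at the right, Derl3 is at 0 in every mouse, and Trib3 is above 0 only in mouse 1.

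The 11 chaperones and co-chaperones were all above 1 TPM in every mouse and summed to 1976, 3324, 2648 and 1674 TPM, with a mean of 2406 ± 735 TPM (SD, n = 4). Hspa5 (ENSMUSG00000026864, GRCm38 chromosome 2, 34771970 to 34777547, plus strand), the Hsp70 of the ER, had 689, 1412, 1088 and 630 TPM in mice 1 to 4. Its median was higher than that of 99.8% of genes with a length. Mouse 2 was the highest, at 2.24 times the level in mouse 4, and Hspa5 rested on at least 27547 counts in each library. Hsp90b1 (chromosome 10, 86690209 to 86705509, minus strand), the ER member of the Hsp90 family known as GRP94, had 337, 390, 418 and 259 TPM. It varied less between mice than Hspa5, with a coefficient of variation (CV) of 20.03% against 38.4%. A non-coding gene on the opposite strand, 1810014B01Rik, shares 10.3% of the exonic bases of Hsp90b1 and had 0 counts.

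The helpers of BiP covered a wide range. Dnajb11, a J-domain protein that brings BiP to its clients, had 110, 151, 169 and 100 TPM, and Dnajb9, another one, had 86.1, 159, 109 and 118 TPM. Neither was above the other in every mouse. The nucleotide exchange factors, which make BiP release its client, were lower: Sil1 (chromosome 18) had 44.9, 27.9, 26.3 and 25.1 TPM, and Hyou1 (chromosome 9, 44379490 to 44392369, plus strand), also known as GRP170, had 6.16, 10.3, 2.71 and 3.51 TPM. Hyou1 was the lowest chaperone by median, and its highest mouse was again mouse 2. Of the rest, Creld2, a secreted stress-induced protein of the ER, spanned 126 to 306 TPM, and Manf, also secreted and stress-induced, 169 to 298 TPM. Sdf2l1, a partner of BiP complexes, spanned 133 to 366 TPM, the J-domain protein Dnajc3 (p58IPK) 92.0 to 165 TPM and the disulfide reductase Dnajc10 (ERdj5) 18.2 to 41.1 TPM.

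The lectin cycle, which folds glycoproteins, is represented by Calr, Canx and Uggt1, all above 1 TPM in every mouse and together 317 ± 93.9 TPM (mean ± SD, n = 4). Calr (calreticulin; chromosome 8, 84841850 to 84846934, minus strand), the soluble lectin, had 166, 331, 208 and 86.9 TPM. Canx (calnexin; chromosome 11, 50293961 to 50325673, minus strand), the membrane-bound one, had 140, 92.9, 113 and 110 TPM. The 2 lectins did not follow the same order of mice: Calr was highest in mouse 2, where Canx was lowest. Uggt1, which puts a glucose back on misfolded glycoproteins so that they bind the lectins again, had 6.12, 5.10, 4.62 and 2.97 TPM.

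The disulfide and prolyl enzymes summed to 3373, 3148, 4049 and 2746 TPM, with a mean of 3329 ± 546 TPM (SD, n = 4), the largest mean sum of the 6 roles on this scale. As counts per 1000000 without a length, the chaperones had the larger sum, 3551 against 3007. Ppic (ENSMUSG00000024538, chromosome 18, 53406332 to 53418115, minus strand), encoding cyclophilin C, a prolyl isomerase of the secretory route, had 1969, 1526, 2207 and 1747 TPM. Every mouse was above every mouse of Hspa5, and the CV was 15.7%. Ppic alone had a mean of 1863 TPM, while the chaperones together had 2406 TPM. The rank of the disulfide and prolyl role above the chaperones thus rests on this prolyl isomerase. Pdia3 (ERp57), the disulfide isomerase that works with the lectins, had 741, 859, 1019 and 406 TPM. It was lowest in mouse 4, by a gap of 0.547 of its range. Pdia4 (ERp72) had 306, 409, 331 and 253 TPM, and Pdia6 (P5) had 294, 276, 418 and 288 TPM. The pair overlapped, with mouse 2 highest for Pdia4 and lowest for Pdia6. Pdia5, a less studied member of the family, had 52.5, 76.7, 67.4 and 35.8 TPM.

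The oxidases that drive disulfide formation were low and uneven. Ero1a (chromosome 14, 45283087 to 45318771, minus strand), the widely expressed ERO1, had 777, 42, 450 and 837 counts, which are 8.36, 0.714, 4.93 and 15.3 TPM in mice 1 to 4. It fell below the cutoff in mouse 2 alone, the mouse in which most chaperones were highest, and its ratio of highest to lowest mouse, 21.5, was the largest of the genes expressed by median. Ero1b (chromosome 13, 12565874 to 12611396, plus strand), best known from secretory cells of the pancreas, had 89, 55, 224 and 1 counts, or 0.760, 0.743, 1.95 and 0.0145 TPM. The single count in mouse 4 is under the floor of 3 counts. Over 21.7% of its longest transcript, the sequence is nearly identical to Gm18562, a gene with 0, 14, 0 and 67 counts, so that the counts of Ero1b are uncertain.

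The 4 stress sensors were expressed at the low end. Together they made up between 0.385% and 0.700% of the sum of the 37 genes, with 33.0 ± 4.59 TPM (mean ± SD, n = 4). Atf6b (chromosome 17, 34647146 to 34655074, plus strand), a homolog of Atf6, had 18.0, 12.9, 17.9 and 15.4 TPM, the highest median of the 4. Eif2ak3, which encodes PERK, had 6.08, 8.22, 5.93 and 15.7 TPM and was highest in mouse 4. Ern1, which encodes IRE1alpha (chromosome 11, 106394650 to 106487852, minus strand), had 3.44, 1.56, 1.26 and 3.04 TPM from 495, 142, 178 and 257 counts. It was above the cutoff in every mouse. Atf6 (chromosome 1, 170704674 to 170867771, minus strand) had 117, 851, 1418 and 452 counts, or 0.720, 8.29, 8.89 and 4.74 TPM. Mouse 1, one of the deepest libraries, was thus below the cutoff while the other mice were above it.

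The transcription factors and effectors summed to 663 ± 177 TPM (mean ± SD, n = 4), with Xbp1 as the highest. Xbp1 (chromosome 11, 5520659 to 5525893, plus strand), the factor made active by IRE1, had 416, 346, 349 and 199 TPM, counted over spliced and unspliced forms together. Atf4, the factor translated under PERK signalling, spanned 181 to 239 TPM with a CV of 12.4%, the second lowest of the expressed genes. Ppp1r15a (GADD34), which directs the phosphatase that reverses eIF2alpha phosphorylation, spanned 34.04 to 123 TPM. Ddit3 (CHOP; chromosome 10, 127290774 to 127296288, plus strand), a factor linked to cell death under lasting stress, had 966, 1040, 957 and 122 counts, or 32.1, 54.6, 32.3 and 6.89 TPM. All 4 of these were lowest in mouse 4. Ddit3 shares 6.13% of its exonic bases with its second listed model and 3.97% with Mars on the opposite strand.

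Trib3, a pseudokinase gene induced by ATF4 and CHOP, differed from the rest of the group. Trib3 (chromosome 2, 152337422 to 152344032, minus strand) had 1007 counts in mouse 1, or 26.9 TPM, and 0 counts in mice 2, 3 and 4. Against a floor of 3 counts in each library, mouse 1 was at least 212-fold higher than mouse 2, at least 330-fold higher than mouse 3 and at least 197-fold higher than mouse 4. Xbp1, Atf4 and Ppp1r15a were also highest in mouse 1, though Atf4, at 239 TPM against 232 TPM in mouse 3, and Ppp1r15a, at 123 TPM against 122 TPM in mouse 3, were so by little. Ddit3 was highest in mouse 2, at 54.6 TPM, against 32.1 TPM in mouse 1 and 32.3 TPM in mouse 3. Mouse 1 was the mouse with the highest erythroid sum as well, 4980 TPM for 6 of 6 markers detected above a median of 1 TPM, against 35.04 to 1708 TPM in the others, and the part of this in the Trib3 counts was not tested.

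The degradation genes had the most even sum, 546, 445, 461 and 484 TPM, with a CV of 9.20%. Herpud1 (chromosome 8, 94386438 to 94395377, plus strand), a stress-induced scaffold of the ERAD complex, had 274, 285, 238 and 273 TPM. Its CV of 7.67% was the lowest of the 34 expressed genes. Derl1, a channel component, had 184, 73.3, 164 and 155 TPM and was lowest in mouse 2. Its paralog Derl2 had 46.0, 30.9, 30.3 and 21.8 TPM. Derl3 (chromosome 10, 75893413 to 75895941, plus strand), the paralog known from secretory tissues, had 0 counts in every mouse, where a floor of 3 counts equals between 0.0856 and 0.146 TPM. Edem1, a lectin that hands glycoproteins to ERAD, had 17.6, 15.6, 3.26 and 14.0 TPM and was lowest in mouse 3. The ligase Syvn1 (HRD1) spanned 5.22 to 13.3 TPM and its partner Sel1l 11.4 to 34.6 TPM. Over 20.03% of its longest transcript, Derl1 is nearly identical to Gm35638, which had at most 78 counts.

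**Figure D3:**
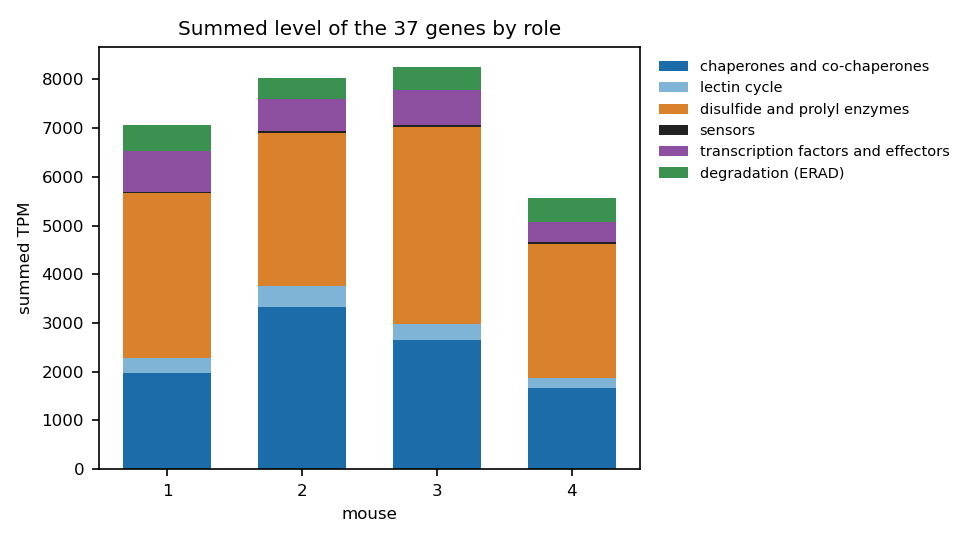
Summed TPM of the 37 genes in each mouse, split by role. The y axis starts at 0 and colours name the roles. The bars reach 7072, 8037, 8254 and 5564 TPM in mice 1 to 4, and the chaperone part is widest in mouse 2, at 41.4% of the bar.

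Paralogs and partners were compared within each mouse, which largely removes the scaling between libraries. For 12 pairs the difference in log2(TPM + 1) was tested by flipping its sign in every combination of the 4 mice (an exact permutation test, two-sided). The smallest p this allows is 0.125, so no pair could reach 0.05. The smallest p after Benjamini-Hochberg adjustment over the 12 was 0.1875. In 8 of the 12 pairs the same gene was higher in all 4 mice, and each of these had p = 0.125 in the exact test. The mean difference was larger than its SD in 9 pairs.

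Hspa5 was above Hsp90b1 in 4 of 4 mice, by 1.39 ± 0.34 on the log2 scale (mean ± SD, n = 4). Sil1 was above Hyou1 in every mouse, with Hyou1 minus Sil1 at -2.36 ± 0.69. Pdia3 was above Pdia5 by 3.66 ± 0.22, the pair with the smallest SD of the 12. Among the sensors, Ern1 minus Eif2ak3 was -1.55 ± 0.61, and Atf6b minus Atf6 was 1.62 ± 1.28, with mouse 1 at 3.46 and the other mice between 0.58 and 1.52, so that it was 1.011 without mouse 1. Xbp1 exceeded Ddit3 by 3.59 ± 0.84. Of the Derlins, Derl1 was above both paralogs in all mice, with Derl2 minus Derl1 at -2.09 ± 0.67, or -1.30 with the length of the longest transcript, and Derl1 minus Derl3 at 7.10 ± 0.60, the latter set by the pseudocount because Derl3 had no counts.

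The remaining 4 comparisons had mice on either side of 0. Calr minus Canx was 0.65 ± 0.92 (3 of 4 mice, exact permutation p = 0.375), from 1.82 in mouse 2 to -0.33 in mouse 4, and was 0.26 without mouse 2 and 0.98 without mouse 4. Ero1a minus Ero1b was 1.85 ± 1.75 (3 of 4 mice, exact permutation p = 0.25), with 1.13 when mouse 4 was left out and 2.90 with a pseudocount of 0.1. Dnajb11 minus Dnajb9 was 0.17 ± 0.39, with Dnajb11 higher in 2 of 4 mice (exact permutation p = 0.5). It was 0.48, with Dnajb11 higher in all mice, when the length of the longest transcript was used, and without a mouse it ran from 0.01, without mouse 3, to 0.30, without mouse 4, with 0.10 without mouse 1. Pdia6 minus Pdia4 was -0.03 ± 0.39, with Pdia6 higher in 2 of 4 mice (exact permutation p = 0.875), and became 0.75 with Pdia6 higher when the length of the longest transcript was used. With 4 mice these p-values do not show that the paired genes are equally expressed.

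**Figure D4:**
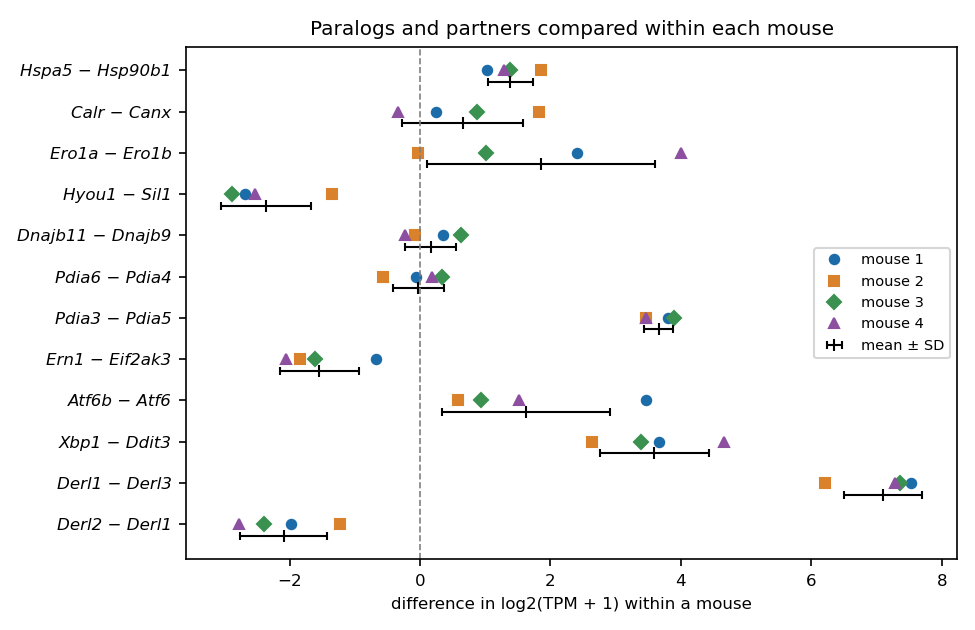
Within-mouse differences for 12 pairs of paralogs or partners. The x axis is the difference in log2(TPM + 1), symbols stand for mice and the black bar gives the mean ± SD over 4 mice. For 8 pairs all mice lie on one side of 0, and the values for Pdia6 minus Pdia4 and Dnajb11 minus Dnajb9 straddle it.

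The spread between mice was compared with that of other genes at a like level. The median CV of the 34 expressed genes was 32.5%. All 11948 expressed genes had a median CV of 52.8%, but most of them are lower. Among genes with medians from 10 to 100 TPM, the median CV was 41.1% for 9 of these genes and 40.7% for all 4429. From 100 to 1000 TPM it was 25.2% for 17 genes and 23.3% for all 895, and from 1 to 10 TPM it was 51.3% for 7 genes and 72.0% for all 6528. A highest mouse over 4 times the lowest, on TPM + 1, was seen for 4 of the 34 genes (11.8%), namely Ero1a, Ddit3, Atf6 and Edem1, against 37.9% of all expressed genes. Without mouse 1 this count was 2. The 37.9% is not matched for level, since 6528 of the 11948 genes had medians from 1 to 10 TPM, against 7 of the 34. It does not show that these genes vary less than others of like level. A single mouse stood apart, by Dixon's gap at the 95% level, for 2 of the 34 (5.88%), against 5.75% of all expressed genes, which is a share near the background. They were Sil1, highest in mouse 1, and Pdia6, highest in mouse 3. The count was 0 with TMM factors and 3 with a common upper quartile.

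The mice did not differ in the same way for every role. Mouse 2 was the highest for 7 of the 11 chaperones, and no chaperone was lowest in it. Among all expressed genes, by contrast, mouse 2 was lowest for 35.02%, the largest such share of any mouse. The chaperones made up 41.4% of the sum in mouse 2, where the other mice had 27.9% to 32.1%. Over all 34 expressed genes, mouse 2 was highest for 13 (38.2%), against 26.1% of all expressed genes. With TMM factors mouse 2 was highest for 9 of the 11 chaperones, against 27.4% of all expressed genes. With a common upper quartile it was highest for 10, against 27.7%. Mouse 2 also had the fewest detected genes, 16109, and the highest sum of the MSC and sort markers, 4594 TPM against 1109 to 2357 TPM in the others, of which Cxcl12 alone gave 4329 TPM. The part of these in the chaperone levels was not tested. Among the same markers, Prrx1 was lowest in mouse 2, at 10.6 TPM.

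Mouse 4 was the lowest for 19 of the 34 expressed genes (55.9%), against 29.7% of all expressed genes, among them 9 of the 11 chaperones and all 4 expressed effectors. This count moved with the scaling between libraries. It was 18 (52.9%) with TMM factors, against 26.4% of all expressed genes. It was 13 (38.2%), against 24.5%, when 10 abundant secreted cargo genes, such as collagens and osteocalcin, were left out of the total. With a common upper quartile, which multiplied the TPM of mouse 4 by 1.17 and of mouse 3 by 0.881, it was 11 of 34 (32.4%), against 21.8% of all genes, and mouse 4 was then lowest for 3 of the 11 chaperones. Set against all expressed genes, the median deviation of the 34 from the mean over mice was -0.35 in mouse 4 on the log2 scale, where all genes had -0.10, and 0.20 in mouse 2, where all genes had -0.06. In mice 1 and 3 the 34 genes were at 0.04 and 0.15, and all genes at 0.08 and 0.22.

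The 10 cargo genes took 294972, 342647, 265809 and 384295 TPM in mice 1 to 4. By this sum mouse 4 had the most cargo transcripts, and it had the smallest sum of folding genes. Of the 10, only the osteocalcin genes Bglap and Bglap2 were highest in mouse 4. Bglap had 96604, 119827, 55668 and 156730 TPM in mice 1 to 4, and Bglap2 had 64790, 78631, 42376 and 97409 TPM. The first place of mouse 4 by cargo thus rests on these osteocalcin genes. Per 100 TPM of cargo, the 37 genes had 2.40, 2.35, 3.11 and 1.45 TPM, with a mean of 2.32 ± 0.679 TPM (SD, n = 4). Mouse 3 was the highest by this ratio and mouse 4 the lowest, and the ratio without Bglap and Bglap2 was not computed. Since the cargo takes a large share of each total, a higher cargo sum lowers the TPM of all other genes, and no correlation was computed over 4 mice.

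**Figure D5:**
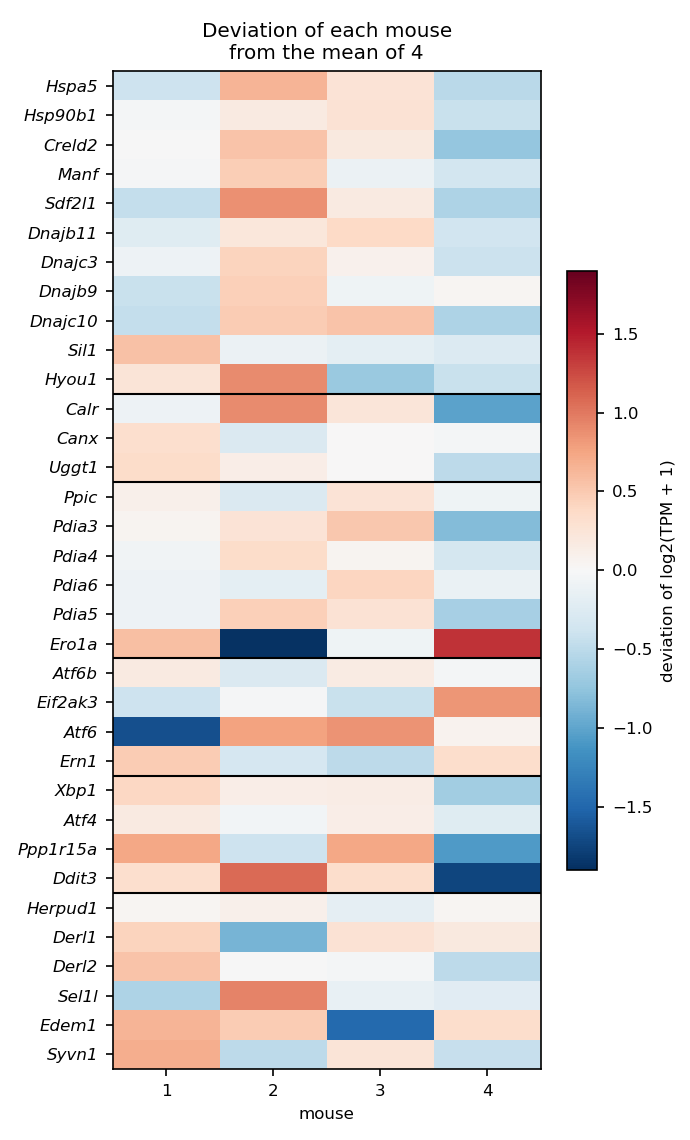
Deviation of each mouse from the mean of 4 for the 34 expressed genes, in log2(TPM + 1). Red is above and blue below the gene's own mean, and black lines separate the roles. The chaperone rows are mostly red in mouse 2 and blue in mouse 4, which with a common upper quartile was the lowest for only 3 of the 11. The darkest cells are those of Ero1a, Atf6, Ddit3 and Edem1.

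Other genes of the same pathways were read from lists of known function. Of 16 further PDI-family and thiol enzymes, 15 had a median above 1 TPM, led by P4hb, the isomerase that is also a subunit of collagen prolyl hydroxylase, with a median of 1286 TPM, and by Vkorc1, which recycles vitamin K, with 922 TPM. P4hb was thus above Pdia3 by median level. Pdia2, a family member known from the pancreas, was the lowest, with 524, 0, 1 and 0 counts in mice 1 to 4. All 7 further prolyl isomerases of the ER passed, led by Fkbp7 at 902 TPM and Fkbp10, a chaperone of collagen, at 557 TPM, with Fkbp14 the lowest at 108.2 TPM. Of 16 genes for glycan transfer and trimming, all 15 with a known length passed, led by Ddost at 667 TPM and Krtcap2 at 652 TPM. Uggt2, the paralog of Uggt1, was lowest at 1.40 TPM. All 16 further ERAD genes passed, from Selenos at 663 TPM and Rnf5 at 80.6 TPM down to Nploc4 at 3.34 TPM.

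On the signalling side, 6 of 8 further ER stress transducers passed. Creb3l1, also called OASIS and known from bone, had a median of 253 TPM and Creb3 one of 127 TPM, both above each of the 4 sensors by median. Creb3l4 and Ern2, the epithelial homolog of Ern1, had 0 counts in every mouse. Of 6 further genes around eIF2alpha, its kinases and its phosphatase, 5 passed, led by Eif2s1, which encodes eIF2alpha itself, at 37.02 TPM and the kinase gene Eif2ak1 at 19.8 TPM, and Eif2ak4 (GCN2) was lowest at 0.815 TPM. Of 17 target genes of ATF4 and CHOP, 14 had a median above 1 TPM, but only 8 were above 1 TPM in every mouse. Nupr1 had a median of 2166 TPM and Slc3a2, a chain of amino acid transporters, one of 129 TPM, while Tnfrsf10b had 1 count in all. Cell isolation induces immediate-early and heat-shock genes, and 12 of 12 of these passed by median, 9 of them in every mouse. Fos was at 1578 TPM, Junb at 442 TPM and Hspa1b lowest at 3.14 TPM. Their sum was 2319, 4077, 5667 and 2237 TPM in mice 1 to 4. By this sum mice 1 and 4 were the lower ones, in an order that turned with TMM factors and with a common upper quartile. The heat-shock genes Hspa1a, Hspa1b and Hsph1 were instead highest in mouse 2 and higher in mouse 1 than in mouse 3. Hspa1a had 33.8, 54.1, 6.53 and 0.0326 TPM in mice 1 to 4. The heat-shock gene Dnajb1 was highest in mouse 3. The part of these genes in the levels of the folding genes was not tested.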

How the data were processed

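RNA of sorted MSCs was made into full-length cDNA with an oligo-dT primer, amplified by PCR and tagmented, with 1 library per mouse. According to the labels and the supplementary methods of the study, the authors mapped the pairs with STAR 2.7.10 on GRCm39 and used featureCounts (Subread 1.6.5) with no strand option to count unique pairs on exons. They deposited raw counts for each mouse.

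TPM was computed from these counts with Python 3.11.15, numpy 2.4.6, scipy 1.17.1 and pandas 2.3.3. Exon lengths, biotypes and positions are from GENCODE M21 on GRCm38, an older build than that of the counts, and 4855 of 56980 listed genes had no length and were left out. TMM factors were made with edgeR 4.0.16 in R 4.3.3, with no gene test. BLAST 2.17.0 was used to look for near-identical copies, with a minimum of 95% identity and 100 bases. The code was tested on simulated data. SDs measure the spread between single libraries of separate mice, floors cover counting error only, and PCR copies without molecular identifiers are not independent molecules.

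Members and lists were chosen with earlier results of these data known. Values in every mouse are given for the highest and lowest gene of each role, the 5 with the largest ratio between mice, those not above 1 TPM in every mouse and both genes of each pair, and from each further list the 2 highest genes and the lowest are named. Alternatives were another gene length, counts per 1000000, TMM factors, a common upper quartile, other cutoffs and pseudocounts, and leaving out each mouse. Added after seeing the data were unshared exon length, scaling without the cargo genes, and a background of genes with medians from 10 to 1000 TPM. Protein sequences were not analysed here.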

Additional observations from a re-analysis of the deposited data

Results flagged for a closer look

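Among the 36 genes with counts, 3 had a single mouse far from the others, where chance at this level gives about 1 in 20, or 1.8 genes. Among the 34 expressed genes it was 2, or 5.88%, against 5.75% of all expressed genes. It was 0 with TMM factors and 3 with a common upper quartile. The gap to the nearest mouse was 0.856 of the whole range for Sil1, with mouse 1 at 44.9 TPM and the other mice between 25.1 and 27.9 TPM. The gap was 0.872 for Pdia6, with mouse 3 at 418 TPM and the others between 276 and 294 TPM. For Trib3 it was 1, which the 0 counts of the other 3 mice fix, since mouse 1 held all 1007 counts.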

How the results depend on the processing

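The number of genes expressed was 34 without each mouse in turn and between 31 and 35 under the other settings. The count of genes with 1 mouse apart was 2, with 0 under TMM factors and 3 under a common upper quartile. The count with a wide spread was 4, and 2 to 3 with a mouse left out, the 2 without mouse 1. Pdia6 minus Pdia4 turned from -0.03 to 0.75 with the length of the longest transcript (exact permutation p = 0.125). It ranged from -0.15 to 0.15 with a mouse left out, 0.15 being the value without mouse 2. As counts per 1000000 without a length, the sums were 8601 for all genes, 3551 for chaperones, 3007 for disulfide and prolyl enzymes, 489 for lectins, 72.2 for sensors and 695 for degradation genes. Genes lowest in mouse 4 numbered 19, and 11 with a common upper quartile. Among genes with medians from 10 to 1000 TPM, mouse 4 was lowest for 18 of 26 (69.2%), where all such genes had 34.03%. With a common upper quartile mouse 4 was lowest for 10 of 26 (38.5%), where all had 22.0%. With the cargo genes left out it was lowest for 12 of 26 (46.2%), where all had 26.1%. For the other 11 pairs the mean difference kept its sign under every setting run. No paired analysis was possible because all 4 libraries form a single group, so samples could not be paired between groups; the 12 pairs are of genes within a mouse. Lengths from another annotation, 4 mice and a small number of cells limit what these levels can show, and the depth gives a floor of up to 0.132 counts per 1000000.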
